A study of Homo sapiens with 4 samples.

Results

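The genes described here encode the glycoproteins of the extracellular matrix, the laminins and other proteins of the basement membrane, and the lysyl oxidases that crosslink matrix fibres. They were chosen by name, 41 genes in all, and were read from every probe set of the array whose annotation named 1 of them and no other gene. This gave 103 probe sets for 40 genes, out of 19775 genes and 54613 probe sets; LAMA3 was not analysed here. The cells were UM-UC-3, a long-cultured line from a human bladder cancer. The GFP-RhoGDI2 line had been stably transfected with RhoGDI2 joined to green fluorescent protein, and the GFP line with green fluorescent protein alone. RhoGDI2 is the product of ARHGDIB, which the series calls a metastasis suppressor. Both lines were sorted for fluorescence, and the labels describe a puromycin selection plasmid for the GFP control. The description label of the GFP-RhoGDI2 samples repeats the account of the control, so the lines were assigned from the sample titles, with which the source names and genotypes match. Each line had 2 arrays, from cells in log phase growth, of preparations A and B made at different times, so that each preparation holds 1 array of each line. The sources used here do not say whether a line is 1 clone or whether each preparation had its own transfection. The spread between arrays is therefore that between preparations, and a difference between the lines cannot be told apart from one that arose when the lines were made.

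Cells are held in a meshwork of secreted proteins. Fibronectin, tenascins, thrombospondins and related glycoproteins connect fibres to integrins or modulate that contact. Fibrillins, fibulins and microfibril-associated proteins build the microfibrils of elastic tissue. Laminins are trimers of an alpha, a beta and a gamma chain that polymerise in the basement membrane, where nidogens, agrin and perlecan tie them to other components. Lysyl oxidases oxidise lysines of collagen and elastin so that the fibres become covalently crosslinked. In the bladder, a basement membrane separates the urothelium from the stroma below it.

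The values are log2 expression per probe set. A gene was read from its probe set with the highest mean over the 4 arrays, and it was tested where that mean reached 4.637, the median over all probe sets. No detection calls were used, so a lower value places a gene near the bottom of the scale and does not show that it is silent. The brightest ARHGDIB probe set stood at 11.94 and 11.58 on GFP-RhoGDI2 arrays A and B, against 6.51 and 6.27 on GFP arrays A and B. Of 15 urothelial markers on the array, 5 reached the level for testing, among them the keratin genes KRT7, KRT8 and KRT18, while the uroplakins, EPCAM and CDH1 lay below it; KRT8 and KRT18 fell in the GFP-RhoGDI2 line. PPARG was called higher, but both its GFP arrays lay below the level for testing, so it entered the test only through the GFP-RhoGDI2 line. Of 9 fibroblast markers 3 were tested and 0 were called by limma, with 0 at an unadjusted p under 0.05, and their mean log2 level was 4.95 and 4.86 on the GFP-RhoGDI2 arrays, against 5.05 and 4.85 on the GFP arrays. The mean levels of 7 endothelial markers lay between 3.90 and 4.05 over the 4 arrays, and those of 5 leukocyte markers between 3.62 and 3.80, near the low end of the scale.

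LOXL2, TNC, TGFBI and HSPG2 rose in the GFP-RhoGDI2 line, and MFAP5 and LAMA1 fell. These were 6 of the 22 genes that were tested, and 8.17% of all 12123 tested genes were called at an adjusted p under 0.05 in limma. Counted by probe set, 7.64% of the 27307 tested were called. In each direction, the 4 genes that rose stand against 4.83% of all genes and the 2 that fell against 3.35%. LOXL2 and TNC changed by at least 2-fold, as did 1.66% of all genes. TNC entered the test only through its level in the GFP-RhoGDI2 line, and its difference was 0.97, under 2-fold, without the GFP-RhoGDI2 B array. The members were listed with earlier results known, so these counts describe the list and are no test of it. The other 18 genes on the array lay below the level for testing. On the arrays, the values of the lines did not overlap for 9 of the 22 tested genes, against 54.5% of all genes. The median log2 difference of the 22 was 0.14, and -0.01 over all tested genes. That median was 0.09 without the GFP A array, 0.05 without the GFP B array, 0.21 without the GFP-RhoGDI2 A array and 0.04 without the GFP-RhoGDI2 B array. Its size thus changed with whichever array was left out. Over all 40 genes it was 0.09. In a culture measured in bulk, fewer cells that express a gene and less RNA per cell cannot be told apart.

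**Figure D1:**
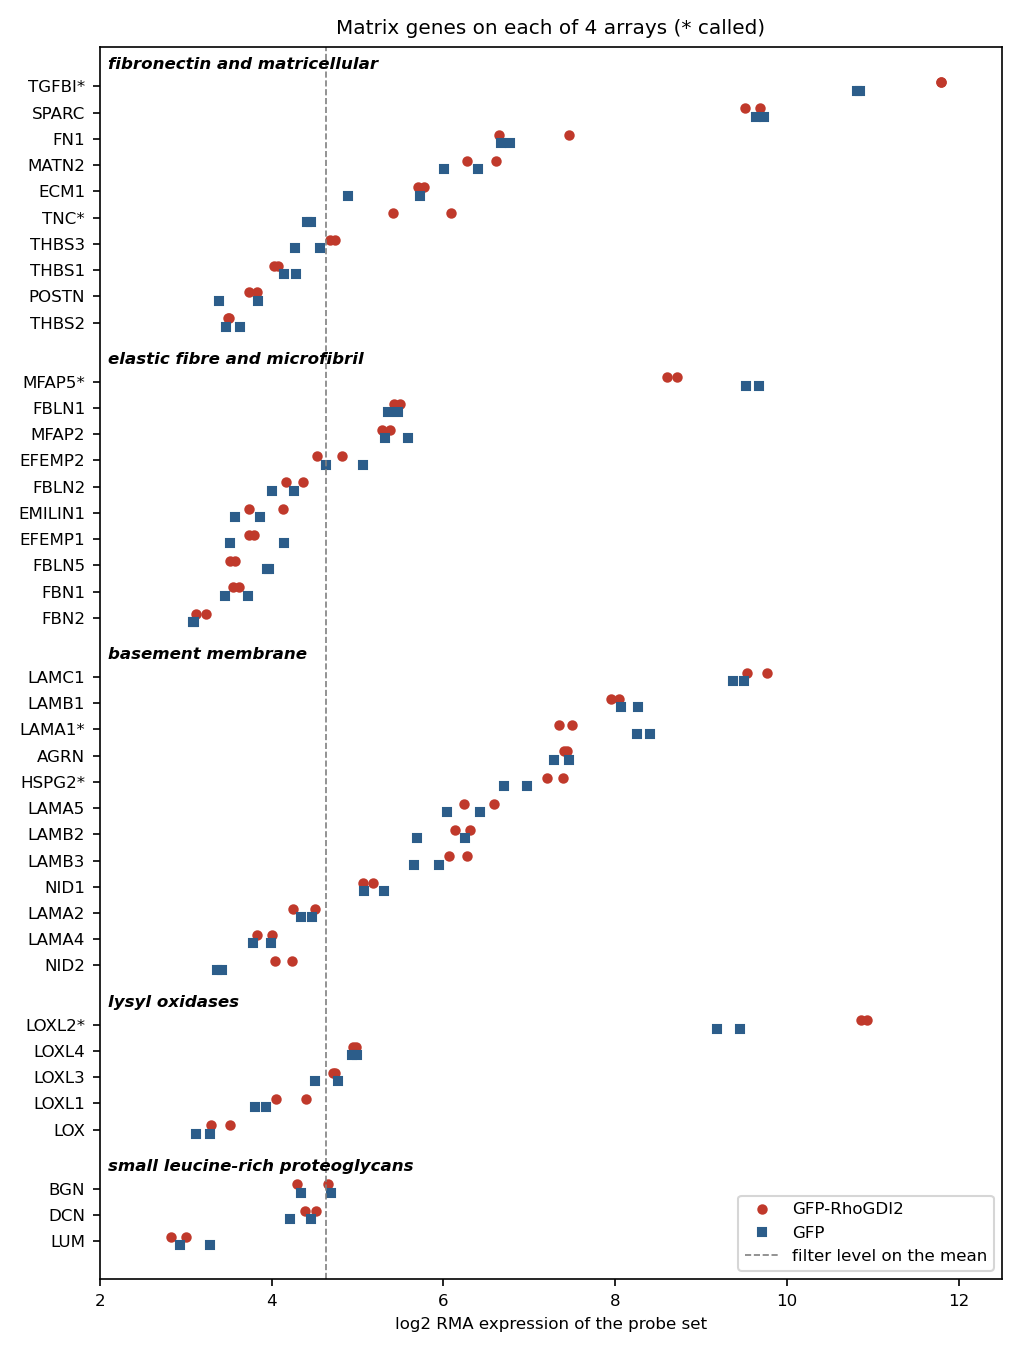
Log2 RMA expression of the probe set that stands for each of the 40 genes, on the x axis, with genes grouped by role down the page. Red circles are the 2 GFP-RhoGDI2 arrays, blue squares the 2 GFP arrays, the dashed line is the level for testing (4.637), and the 6 called genes carry an asterisk. The widest gaps between the lines are those of LOXL2, TNC, TGFBI, MFAP5 and LAMA1, and smaller gaps without overlap appear for other genes, such as HSPG2 above the line and NID2 and FBLN5 below it.

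The group of fibronectin and the matricellular proteins, which sit in the matrix and tune adhesion, held 10 genes. Of these, 6 were tested, and TGFBI and TNC rose. TGFBI encodes a secreted protein that is induced by TGF-beta and binds collagens and integrins. It read 11.79 and 11.79 on GFP-RhoGDI2 arrays A and B, against 10.85 and 10.81 on GFP arrays A and B. Each line's arrays lay within a narrow band and the bands were far apart. The difference was 0.96 (95% interval 0.74 to 1.19), or 1.95-fold, with an adjusted p of 0.00583 in limma.

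TNC encodes tenascin-C, a glycoprotein of embryonic, wounded and tumour stroma that weakens the contact of cells with fibronectin. It read 5.41 and 6.09 on GFP-RhoGDI2 arrays A and B, against 4.46 and 4.42 on GFP arrays A and B. Both GFP arrays lay below the level for testing, so TNC entered the test through its level in the GFP-RhoGDI2 line, and the size of its rise is uncertain. The difference was 1.31 (95% interval 0.87 to 1.75), or 2.48-fold, with an adjusted p of 0.0161 in limma. It was 0.95 in preparation A and 1.67 in preparation B. Its other probe sets, which lay between 2.97 and 3.32 on the 4 arrays, were not tested.

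FN1 encodes fibronectin, the glycoprotein to which integrins attach through its RGD loop. Its brightest probe set, 210495_x_at, stood at 6.65 and 7.46 on GFP-RhoGDI2 arrays A and B, against 6.67 and 6.77 on GFP arrays A and B. The GFP-RhoGDI2 B array was the high one, and the lines overlapped. The difference was 0.34 (95% interval -0.10 to 0.77) and was not called (adjusted p = 0.287 in limma). The other 3 tested FN1 probe sets differed by 0.58, 0.36 and 0.53. Of these, 212464_s_at was called (adjusted p = 0.0316 in limma), at 5.99 and 6.60 on the GFP-RhoGDI2 arrays against 5.50 and 6.03 on the GFP arrays. That call was lost without preparations as a block (adjusted p = 0.266 in limma). For the probe set 212464_s_at, too, the lines overlapped, and the B array was the higher one in each line. The lines did not overlap for 216442_x_at, at 6.60 and 7.31 on the GFP-RhoGDI2 arrays against 6.25 and 6.50 on the GFP arrays. Its difference of 0.58 (95% interval 0.25 to 0.91) was not called (adjusted p = 0.058 in limma).

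SPARC encodes a small collagen-binding matricellular protein, and its probe sets disagreed. The brightest, 200665_s_at, stood at 9.51 and 9.69 on GFP-RhoGDI2 arrays A and B, against 9.64 and 9.73 on GFP arrays A and B, a difference of -0.08 (95% interval -0.31 to 0.15; adjusted p = 0.622 in limma). The other, 212667_at, read 7.25 and 7.23 on the GFP-RhoGDI2 arrays, against 6.53 and 6.57 on the GFP arrays. It was called higher by 0.69 (95% interval 0.46 to 0.92; adjusted p = 0.0158 in limma). The intervals of the 2 probe sets do not overlap, and no direction is given here for SPARC as a gene.

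The other genes of this group were not called or not tested. ECM1, which encodes a secreted protein of skin and vessel matrix, read 5.77 and 5.71 on GFP-RhoGDI2 arrays A and B, against 5.73 and 4.89 on GFP arrays A and B. The GFP B array was the low one, and the difference of 0.43 was not called (95% interval -0.03 to 0.90; adjusted p = 0.211 in limma); without the GFP A array it was 0.85 and called (adjusted p = 0.0212), and without the GFP B array it was 0.01. MATN2, encoding the filament-forming matrilin-2, differed by 0.24 (adjusted p = 0.179 in limma). The thrombospondin genes THBS1, THBS2 and THBS3 encode multimeric glycoproteins, of which thrombospondin-1 binds CD47 and restrains vessel growth. They lay below the level for testing. Their differences were -0.16, -0.05 and 0.30. All 7 THBS1 probe sets lay below that level. POSTN, which encodes periostin, lay below it in all 4 of its probe sets, with a difference of 0.17.

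Of 10 genes of microfibrils and elastic fibres, 4 were tested, and MFAP5 fell while 0 were called higher. MFAP5 encodes a small microfibril-associated glycoprotein, MAGP-2, which binds fibrillin and also, through an RGD sequence, integrins. It read 8.60 and 8.71 on GFP-RhoGDI2 arrays A and B, against 9.67 and 9.53 on GFP arrays A and B. Both GFP-RhoGDI2 arrays lay below both GFP arrays. The difference was -0.94 (95% interval -1.21 to -0.68), 1.92-fold lower, with an adjusted p of 0.00977 in limma. Its 2 other probe sets were called lower too, with differences of -0.65 and -0.56 (adjusted p = 0.0182 and 0.0415 in limma).

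The other genes of the microfibril and elastic fibre group did not pass the test or lay too low for it. MFAP2, which encodes the related MAGP-1, differed by -0.12 (95% interval -0.36 to 0.12; adjusted p = 0.488 in limma). FBLN1, the gene of fibulin-1, differed by 0.04 (95% interval -0.19 to 0.27), and its 3 other tested probe sets by -0.14, 0.01 and -0.11. EFEMP2, encoding fibulin-4, which brings lysyl oxidase to elastin, read 4.82 and 4.53 on GFP-RhoGDI2 arrays A and B, against 4.64 and 5.06 on GFP arrays A and B. The lines overlapped, with a difference of -0.17 that was not called (adjusted p = 0.578 in limma). The fibrillin genes FBN1 and FBN2, FBLN2, FBLN5, EFEMP1 and EMILIN1 lay below the level for testing. FBLN5, whose product fibulin-5 links elastin to integrins, read 3.52 and 3.58 on GFP-RhoGDI2 arrays A and B, against 3.95 and 3.97 on GFP arrays A and B. The lines did not overlap there, and in the fit with no filter on low values the FBLN5 difference of -0.41 was not called (adjusted p = 0.117 in limma).

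The basement membrane group held 12 genes on the array, of which 9 were tested; HSPG2 rose and LAMA1 fell. LAMA1 encodes the laminin alpha-1 chain, the alpha chain of laminin-111 of early embryos. It read 7.50 and 7.35 on GFP-RhoGDI2 arrays A and B, against 8.40 and 8.25 on GFP arrays A and B. The difference was the same in both preparations, -0.90 in A and -0.90 in B (95% interval -1.13 to -0.67 for the mean), 1.87-fold lower, with an adjusted p of 0.00692 in limma. Without the GFP-RhoGDI2 B array, in the fit without preparations as a block, it was -0.82 and no longer called (adjusted p = 0.0641). Its other probe set, 222346_at, stood at 4.79 and 4.99 on the GFP-RhoGDI2 arrays against 5.21 and 4.91 on the GFP arrays. That probe set differed by -0.17 (95% interval -0.51 to 0.17) and was not called (adjusted p = 0.481 in limma). Its difference was -0.42 in preparation A and 0.08 in B. The intervals of the LAMA1 probe sets do not overlap, so the fall given for LAMA1 is that of its brightest probe set, 227048_at.

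The other laminin chains did not pass the test. LAMB1 and LAMC1 encode the beta-1 and gamma-1 chains that join alpha-1 in laminin-111. LAMC1 read 9.53 and 9.76 on GFP-RhoGDI2 arrays A and B, against 9.49 and 9.37 on GFP arrays A and B, a difference of 0.22 (95% interval -0.08 to 0.51; adjusted p = 0.309 in limma). LAMB1 read 7.94 and 8.04 on GFP-RhoGDI2 arrays A and B, against 8.26 and 8.07 on GFP arrays A and B, a difference of -0.17 (95% interval -0.44 to 0.10; adjusted p = 0.375 in limma). A second LAMB1 probe set differed by -0.41 (95% interval -0.70 to -0.13; adjusted p = 0.0889 in limma), an interval that overlaps that of LAMA1. Differences between the chains were not tested. LAMA5, LAMB2 and LAMB3, of the alpha-5, beta-2 and beta-3 chains, differed by 0.18, 0.25 and 0.37, with adjusted p values of 0.280, 0.424 and 0.171 in limma. LAMA2 and LAMA4 lay below the level for testing in all 4 and all 5 of their probe sets.

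HSPG2 encodes perlecan, the large heparan sulfate proteoglycan of basement membranes. It read 7.20 and 7.39 on GFP-RhoGDI2 arrays A and B, against 6.70 and 6.97 on GFP arrays A and B. The B array was the higher one in each line, and the lines did not overlap. The difference was 0.46 (95% interval 0.23 to 0.69), or 1.38-fold, with an adjusted p of 0.0442 in limma. This call was lost without preparations as a block (adjusted p = 0.109), without any 1 of the 4 arrays (adjusted p between 0.0832 and 0.362 in that fit), after quantile normalization of the deposited values (0.0522) and with no filter on low values (0.0889). A second HSPG2 probe set, 201654_s_at, lay below the level for testing. It differed by 0.06, with -0.20 in preparation A and 0.33 in B, and the lines overlapped. AGRN, which encodes agrin, another heparan sulfate proteoglycan, differed by 0.05 (95% interval -0.19 to 0.29), and its 3 other probe sets by -0.05 to 0.09.

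The nidogens bridge laminin and type IV collagen networks. NID1 differed by -0.07 in the probe set with the highest mean (adjusted p = 0.696 in limma) and by -0.53 in a second one, 202007_at (95% interval -0.84 to -0.22; adjusted p = 0.0615 in limma). NID2 read 4.04 and 4.24 on GFP-RhoGDI2 arrays A and B, against 3.42 and 3.36 on GFP arrays A and B, all below the level for testing. The lines did not overlap, and in the fit with no filter on low values its difference of 0.75 was called (adjusted p = 0.0250 in limma).

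**Figure D2:**
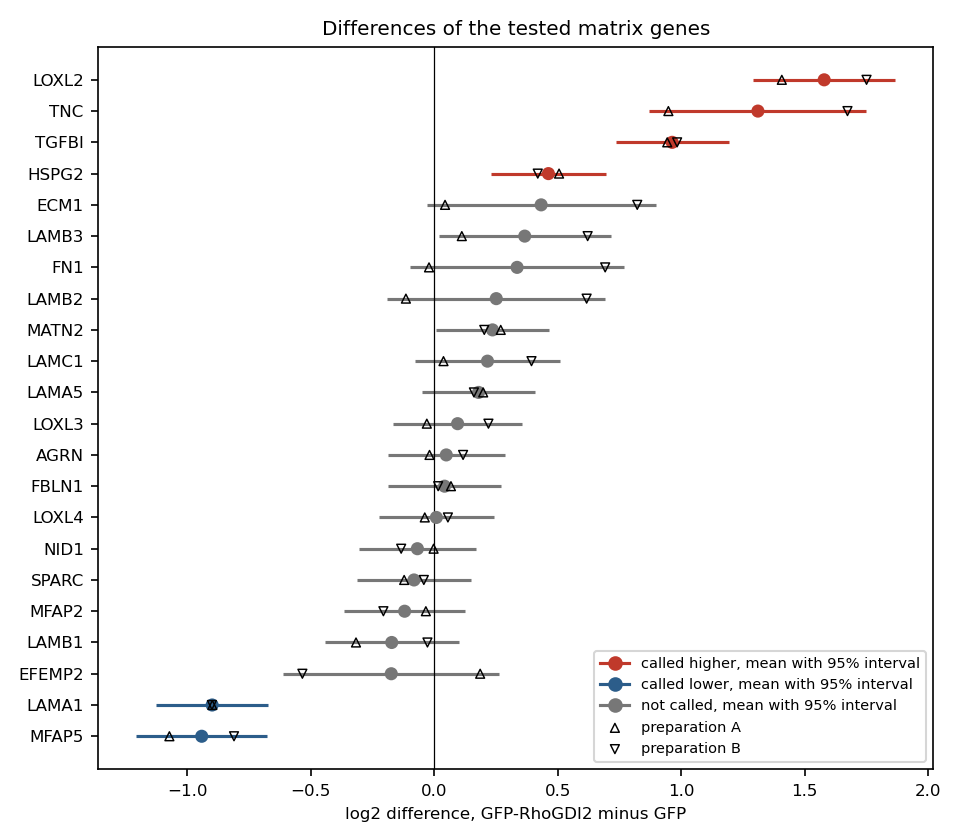
Log2 difference, GFP-RhoGDI2 minus GFP, on the x axis for the 22 tested genes, sorted by size. Filled circles with lines are the mean of both preparations with the 95% interval of the limma fit, triangles the difference in preparation A (up) and B (down). LOXL2 stands at 1.58 and TNC at 1.31, MFAP5 and LAMA1 stand at -0.94 and -0.90, and the triangles lie apart for TNC, ECM1, FN1, LAMB2, LAMB3 and EFEMP2.

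Of the 5 lysyl oxidase genes, 3 were tested and LOXL2 rose. LOXL2 encodes an enzyme with scavenger receptor domains that crosslinks collagen IV and fibrillar collagens. It read 10.86 and 10.93 on GFP-RhoGDI2 arrays A and B, against 9.45 and 9.18 on GFP arrays A and B. Both GFP-RhoGDI2 arrays lay above both GFP arrays, and the gap exceeded the spread within either line. The difference was 1.58 (95% interval 1.29 to 1.87), or 2.99-fold, with an adjusted p of 0.00254 in limma. A second probe set, 202997_s_at, was called higher by 1.32 (95% interval 1.09 to 1.56; adjusted p = 0.00247 in limma). The remaining LOXL2 probe sets, 228808_s_at and 202999_s_at, lay below the level for testing and differed by -0.14 and 0.10. All 4 are of the class ending in _s_at, which can match several transcripts.

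The paralogues of LOXL2 were not called or lay too low for the test. LOXL4 read 4.95 and 4.99 on GFP-RhoGDI2 arrays A and B, against 4.99 and 4.93 on GFP arrays A and B, a difference of 0.01 (95% interval -0.22 to 0.24; adjusted p = 0.966 in limma). LOXL3 read 4.74 and 4.72 on GFP-RhoGDI2 arrays A and B, against 4.77 and 4.50 on GFP arrays A and B, a difference of 0.09 (95% interval -0.17 to 0.36; adjusted p = 0.616 in limma). The interval of LOXL2 lies above those of LOXL3 and LOXL4, a difference between genes that was not tested, and both of these lie close to the level for testing, where a log2 difference can be compressed. LOX and LOXL1, the enzymes best known from collagen and elastin, lay below that level, with differences of 0.20 and 0.36 that were not called in the fit with no filter (adjusted p = 0.418 and 0.264 in limma). LOX differed by 0.22 in preparation A and 0.18 in B, and LOXL1 by 0.125 and 0.60. The lines did not overlap for LOX and LOXL1, as for 54.5% of all tested genes.

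The 3 small leucine-rich proteoglycans, which bind collagen fibrils and control their width, lay below the level for testing in all their probe sets. BGN, of biglycan, read 4.66 and 4.29 on GFP-RhoGDI2 arrays A and B, against 4.70 and 4.35 on GFP arrays A and B, and the lines overlapped. It differed by -0.04, DCN, of decorin, by 0.11 and LUM, of lumican, by -0.20. In the fit with no filter on low values, 0 of these 3 were called, with adjusted p values of 0.887, 0.679 and 0.568 in limma. A second BGN probe set, 201262_s_at, read 4.42 and 4.25 on GFP-RhoGDI2 arrays A and B, against 3.87 and 3.90 on GFP arrays A and B.

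**Figure D3:**
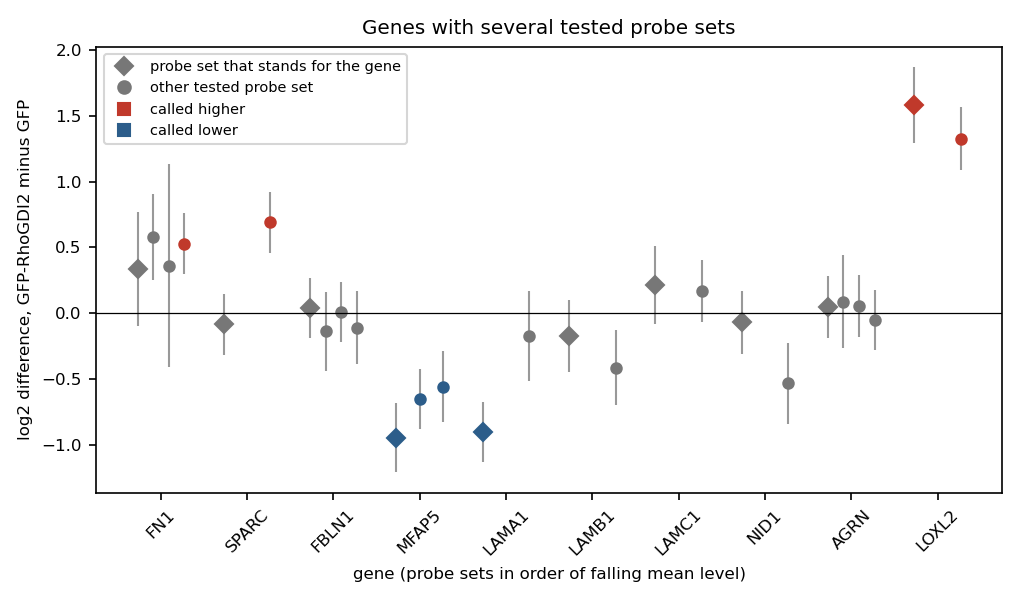
Log2 difference, GFP-RhoGDI2 minus GFP, on the y axis for each tested probe set of the 10 genes that have several. Diamonds are the probe sets that stand for the gene, circles the others, lines the 95% interval, red is called higher and blue called lower. The 3 MFAP5 and the 2 LOXL2 probe sets each point one way, while the 2 of SPARC read -0.08 and 0.69.

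Promoters are shown for TNC, TGFBI and HSPG2, 3 of the 6 called genes, and these 3 rose. The promoters of LOXL2, MFAP5 and LAMA1 were not analysed here. The 3 shown come from RefSeq's promoter table for GRCh38.p14. Each is the 250 bases before the annotated start of transcription, 5′ to 3′ on the gene's strand. Capitals mark a TATA box (TATANA), a GC box (GGGCGG), an AP-1 site (TGANTCA) or a TEAD site (CATTCC), searched on both strands; the TATA letters were loosened to TATANA after the TNC promoter was seen, and neighbouring marks can overlap.
TNC, chr9:115118158-115118407, - strand: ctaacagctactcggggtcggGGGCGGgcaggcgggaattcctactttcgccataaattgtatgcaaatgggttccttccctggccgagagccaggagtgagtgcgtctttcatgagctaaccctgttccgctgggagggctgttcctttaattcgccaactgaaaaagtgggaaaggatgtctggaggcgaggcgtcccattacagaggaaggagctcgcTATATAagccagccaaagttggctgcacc
TGFBI, chr5:136028738-136028987, + strand: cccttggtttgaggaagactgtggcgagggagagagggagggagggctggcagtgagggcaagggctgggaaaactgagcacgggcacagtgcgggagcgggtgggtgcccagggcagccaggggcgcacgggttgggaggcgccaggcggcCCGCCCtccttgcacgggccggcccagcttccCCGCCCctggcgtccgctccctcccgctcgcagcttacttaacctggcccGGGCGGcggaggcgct
HSPG2, chr1:21937311-21937560, - strand: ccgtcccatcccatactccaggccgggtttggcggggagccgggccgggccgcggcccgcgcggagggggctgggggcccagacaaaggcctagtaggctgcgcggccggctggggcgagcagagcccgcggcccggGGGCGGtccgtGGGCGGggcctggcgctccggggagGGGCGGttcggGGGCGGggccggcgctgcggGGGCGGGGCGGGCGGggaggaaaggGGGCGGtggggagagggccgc

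In the 250 bases before the start, TNC held a TATA box 29 to 24 bases before it and 1 GC box. TGFBI held 3 GC boxes and HSPG2 held 8, some of which share bases. AP-1 and TEAD letters were not found in the 3 windows, which says only that these letters are not there. Of 34943 promoters of the same length, 17.7% held the TATA letters, 42.5% a GC box, 6.59% the AP-1 letters and 11.9% the TEAD letters. GC made up 54.8% of the TNC window, 72.8% of that of TGFBI and 82.8% of that of HSPG2, against a median of 58.0% over all promoters. The 32 listed genes in the table had 41 promoters, of which 29 held a GC box, 7 the TATA letters, 5 the AP-1 letters and 6 the TEAD letters. A match of letters is a description and not a binding site.

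The preparations differed in how far some of these genes moved. The differences of preparations A and B had opposite signs in 6 of the 22 tested genes, or 27.3%, against 28.5% of all genes. They lay over 0.5 apart in 6 genes, or 27.3%, against 4.01% of all genes; this limit was set after the values were seen. The 6 were FN1, TNC, ECM1, EFEMP2, LAMB2 and LAMB3. Of these, FN1 differed by -0.02 in preparation A and 0.69 in B, LAMB2 by -0.11 and 0.62, LAMB3 by 0.11 and 0.62, ECM1 by 0.04 and 0.82, and EFEMP2 by 0.19 and -0.53. The B array of the GFP-RhoGDI2 line was the high one for FN1 and TNC, and the B array of the GFP line was the low one for ECM1 and LAMB2. The median level of the tested genes here was 6.32, against 7.81 for all tested genes, and the part of level in these spreads was not tested. LOXL2 differed by 1.41 in preparation A and 1.75 in B, TGFBI by 0.94 and 0.98, HSPG2 by 0.51 and 0.42, and MFAP5 by -1.07 and -0.81, each with 1 sign in both.

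**Figure D4:**
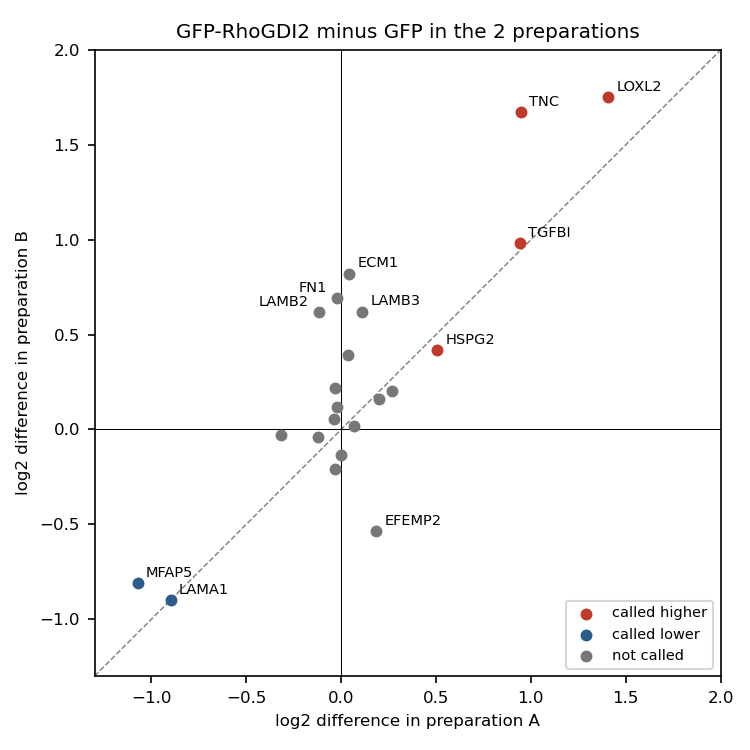
Log2 difference, GFP-RhoGDI2 minus GFP, in preparation A on the x axis and in preparation B on the y axis, for the 22 tested genes. The dashed line marks equal differences, red is called higher, blue called lower and grey not called. TGFBI and LAMA1 lie on the line, and FN1, ECM1, LAMB2 and LAMB3 lie near 0 on the x axis and above 0.6 on the y axis.

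Other genes of the matrix were read from lists set down beside the members. Of 43 further glycoprotein and microfibril genes on the array, 17 were tested, 1 rose and 1 fell. That is 11.8% of those tested, against 8.17% of all 12123 tested genes. The lists are short, and their counts are no test of them. LTBP1, whose product tethers latent TGF-beta to the matrix, rose by 1.82 (adjusted p = 0.0113 in limma). LTBP2, whose product is a fibrillin-binding relative, fell by 0.60 (adjusted p = 0.0228 in limma). LTBP1 read 7.13 and 8.09 on GFP-RhoGDI2 arrays A and B, against 5.78 and 5.79 on GFP arrays A and B. LTBP2 read 9.09 and 9.16 on GFP-RhoGDI2 arrays A and B, against 9.74 and 9.72 on GFP arrays A and B. CCN1 and CCN2, encoding integrin-binding matricellular proteins, differed by 0.23 and 0.21 and were not called (adjusted p = 0.240 and 0.285 in limma).

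Of 16 enzymes and chaperones of matrix processing, 12 were tested, 2 rose and 0 fell. These were 16.7% of those tested, against 8.17% of all tested genes, in a list too short to read as a result. P4HA2 and P4HA1 encode catalytic subunits of the prolyl 4-hydroxylases that stabilise the collagen helix. They rose by 1.20 and 0.53 (adjusted p = 0.00317 and 0.0309 in limma). P4HA3, of another such subunit, differed by 0.29 and was not called (adjusted p = 0.26 in limma). Without preparations as a block, the P4HA1 call was lost (adjusted p = 0.0607 in limma). P4HA2 read 10.27 and 10.19 on GFP-RhoGDI2 arrays A and B, against 9.13 and 8.94 on GFP arrays A and B. PLOD2, a lysyl hydroxylase that prepares collagen for crosslinking, differed by 0.33 and was not called (adjusted p = 0.107 in limma). TGM2, a transglutaminase that crosslinks fibronectin, differed by -0.17 (adjusted p = 0.328 in limma).

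Of 18 receptors for laminin, fibronectin or thrombospondin, 13 were tested, 2 rose and 1 fell. Called receptors made up 23.1% of those tested, against 8.17% of all tested genes, and this count was not tested. ITGA4, the alpha chain of a fibronectin receptor, and CD47, a receptor of thrombospondin-1, rose by 0.87 and 0.63 (adjusted p = 0.00846 and 0.0197 in limma). ITGA2, of a collagen and laminin receptor, fell by 0.81 (adjusted p = 0.0147 in limma). The fibronectin receptor chain ITGA5 and the laminin receptor chains ITGA3 and ITGA6 differed by -0.25, 0.49 and -0.05 and were not called (adjusted p = 0.231, 0.0717 and 0.781 in limma).

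The 6 called genes lie on different chromosomes: HSPG2 on 1, TGFBI on 5, LOXL2 on 8, TNC on 9, MFAP5 on 12 and LAMA1 on 18. Among the 10 tested genes nearest to each in RefSeq order (GRCh38.p14), 5 on each side, the median difference was 0.07 around HSPG2, 0.06 around TGFBI, 0.14 around LOXL2, -0.13 around TNC, -0.22 around MFAP5 and 0.18 around LAMA1. The neighbours of TGFBI and HSPG2 held 0 called genes. Around LOXL2, TNFRSF10D, STC1 and NEFL were called, and 8 of 10 neighbours shared its sign. Around MFAP5, 9 of 10 neighbours were lower, and CD163L1 was called. Around LAMA1, LINC00667 and EPB41L3 were called, and around TNC, PAPPA was called; 3 of 10 neighbours shared the sign of LAMA1, and 3 of 10 that of TNC. Differences of the neighbours ran from -0.28 to 2.90 around LAMA1 and from -0.21 to 4.07 around LOXL2. They ran from -0.35 to 1.44 around TNC and from -0.96 to 0.07 around MFAP5. The part of shared position in all these differences was not tested.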

How the data were processed

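Expression in UM-UC-3 cells was measured on 4 Affymetrix arrays, 2 of the GFP-RhoGDI2 line and 2 of the GFP line. The deposited values are log2 expression per probe set, to which the authors applied RMA (per the submitters' processing notes); its software and version are not given in the sources used. Array medians lay between 4.62 and 4.65, and no further normalization was applied. With arrays, precision is limited by how many there are. Of 54675 probe sets, 62 controls were left out, 41091 named 1 gene, 1801 several and 11721 were not listed; a probe set that names LAMA5 with another gene was not used.

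The 27307 probe sets at or above the median of their mean (4.637) were tested by limma (3.58.1, under R 4.3.3) using moderated variances and a term for the preparation, two-sided p-values and Benjamini-Hochberg adjustment over all of them, at 0.05. The labels state that A and B were paired in time; A minus B differences of the lines correlated at r = 0.264 over the 27307 probe sets, and probe sets are no replicates. Residual degrees of freedom were 1, and moderation added 4.71. The fit was checked on simulated data. Members, role groups and other lists were chosen with earlier results of these data known. Every member is accounted for; called members and, per role group, the 2 tested members with the largest difference and the member with the highest mean have their array values given. Values of further genes, such as FN1, SPARC, ECM1, FBLN5, NID2, LAMB1 and LOXL4, were added after they were seen, as were CCN1, CCN2, PLOD2, TGM2, ITGA3, ITGA5 and ITGA6. Alternatives dropped the block, single arrays, the filter, or _s_at and _x_at probe sets, raised the filter, added an intensity trend or quantile normalization, or averaged the probe sets of a gene.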

Additional observations from a re-analysis of the deposited data

How the results depend on the processing

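The number of called members was 6 and lay between 4 and 9 over 11 alternatives, in which 1.77% to 25.2% of all tested genes were called. Without preparations as a block (no replicate block), 5 members were called, HSPG2 being lost, against 641 of 12123 genes in place of 991. With each array left out in that fit, 4 to 6 were called, where the lone array of a line is assumed to vary like the other line's. Over all 11 alternatives, the median difference of the tested members, called or not, lay between 0.04 and 0.25. TGFBI, TNC, MFAP5 and LOXL2 kept direction and call under every alternative that gave a value, with adjusted p values up to 0.0463 for MFAP5. With probe sets averaged, the differences were smaller for LOXL2 (0.72 against 1.58), LAMA1 (-0.54 against -0.90) and HSPG2 (0.26 against 0.46). TNC had no value above the upper quartile or with averaged probe sets, and LOXL2 had none without _s_at probe sets. LAMA1 lost its call without the GFP-RhoGDI2 B array (-0.82), and HSPG2 kept its call in 3 of 10 alternatives. With probe sets averaged per gene, 9 of 15 members were called, as were 24.6% of all genes; there SPARC was higher by 0.30, against 0.69 without _s_at and _x_at probe sets and 0.0041 when the A array of GFP-RhoGDI2 was dropped, while LAMB1 (-0.29), LAMB3 (0.37) and ECM1 (0.43) were called. Members that were not called could change sign when 1 array was left out, with differences of -0.0738 to 0.745 for FN1, -0.168 to 0.0041 for SPARC, -0.0184 to 0.102 for FBLN1, -0.388 to 0.0393 for EFEMP2, -0.256 to 0.0158 for MFAP2. They ran from -0.0129 to 0.371 for LAMA5, -0.0257 to 0.528 for LAMB2, -0.188 to 0.051 for NID1, -0.0389 to 0.136 for AGRN, -0.0411 to 0.23 for LOXL3 and -0.0206 to 0.0373 for LOXL4. FBLN1 was at -0.14 without _s_at and _x_at probe sets. The cause of these changes was not tested, except that fewer arrays or another probe set enter by construction. Signal near the low end of the scale limits what can be said of the 18 untested genes.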
